A study of Mus musculus with 8 samples.

Results

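The 41 genes described here encode the machinery that takes new proteins into the endoplasmic reticulum (ER), folds them, and removes those that fail to fold, together with sensors that adjust this machinery. They were taken as a list by function, and each was represented by the probe set annotated to that gene alone that had the highest mean over the 8 arrays. This gave 40 measured genes out of 19938 tested; Sec61g, a subunit of the translocon, was annotated only on probe sets shared with other genes and was not analysed here.

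Proteins destined for secretion, the cell surface or lysosomes enter the ER through the SEC61 channel, lose their signal peptide to signal peptidase, and are folded by the HSP70 protein BiP, the HSP90 protein GRP94, lectin chaperones and protein disulfide isomerases. When unfolded proteins accumulate, the membrane sensors IRE1, ATF6 and PERK start the unfolded protein response (UPR), in which IRE1 splices Xbp1 mRNA so that it encodes an active transcription factor, and ATF6 is cut to release another. In macrophages, microglia included, the pathway serves cells that make many secreted, surface and lysosomal proteins.

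Microglia, the resident macrophages of the brain, were sorted as CD45dim CD11b+ cells from whole brains of Swiss Webster mice at 17 weeks of age, and 1 microarray was made for each of 4 MFP2 knockout and 4 control samples. The controls are labelled wild type and all 8 samples female. The MFP2 protein, product of the Hsd17b4 gene, breaks down very-long-chain and branched fatty acids in peroxisomes, and its loss is given as a genotype with no cell type named. The comparison asks how the microglial transcriptome differs without MFP2. Values are log2 expression values, differences are knockout minus control, and a gene is called, or said to have risen or fallen, when its adjusted p from limma (Benjamini-Hochberg over all genes tested) is under 0.05. The labels do not say that the replicates came from separate animals, so a p-value reflects only how these samples varied, which may be technical, and 4 arrays per group limit the precision of each value.

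The arrays carried microglial markers at high levels, with Tmem119 between 11.69 and 12.58 and Cx3cr1 between 12.22 and 12.83. Hsd17b4 was at 7.82 to 9.09 in controls and 4.76 to 7.20 in knockouts, the highest knockout value being that of knockout 2. Control 1 went against its female label, with the Y-linked transcript Eif2s3y at 8.14 against 2.78 to 2.99 in the other controls. Control 3 lay nearest the knockout arrays on the first principal component. Over all 28874 probe sets, those without a single gene symbol included, the 98th percentile of an array was higher in the knockouts. It lay at 10.91 to 11.09 in controls and 11.27 to 11.49 in knockouts, while the medians of all arrays lay between 6.03 and 6.15. The 184 tested genes with a mean level over 11 had a median log2 change of 0.02. Transcripts of other cells were present in both groups, and in bulk samples fewer cells of a type and less RNA per cell cannot be told apart.

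Of the 40 ER genes, 3 rose and 2 fell in knockout microglia. The risers were Ern1, which encodes IRE1, Sec61b, a subunit of the SEC61 channel, and Ssr4, a subunit of the TRAP complex associated with that channel. Xbp1, the transcript that IRE1 splices, and Hsp90b1, which encodes GRP94, fell. Over all genes tested 5.38% were called higher and 4.17% lower (9.55% in either direction), so the shares of 7.5% and 5.0% among the ER genes lie near the background. Every knockout value lay above every control value for 4 of the 40 (7.09% of all genes) and below for 5 (6.92% of all genes). An unadjusted limma p under 0.05 was found for 15 of the 40, beside 21.0% of all genes. Each of these shares is above that of all genes, most of which are dimmer. Genes of like level were not compared in this way. The median log2 change of the 40 was -0.01, beside -0.02 over all genes, with 19 changes above 0 and 21 below.

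**Figure D1:**
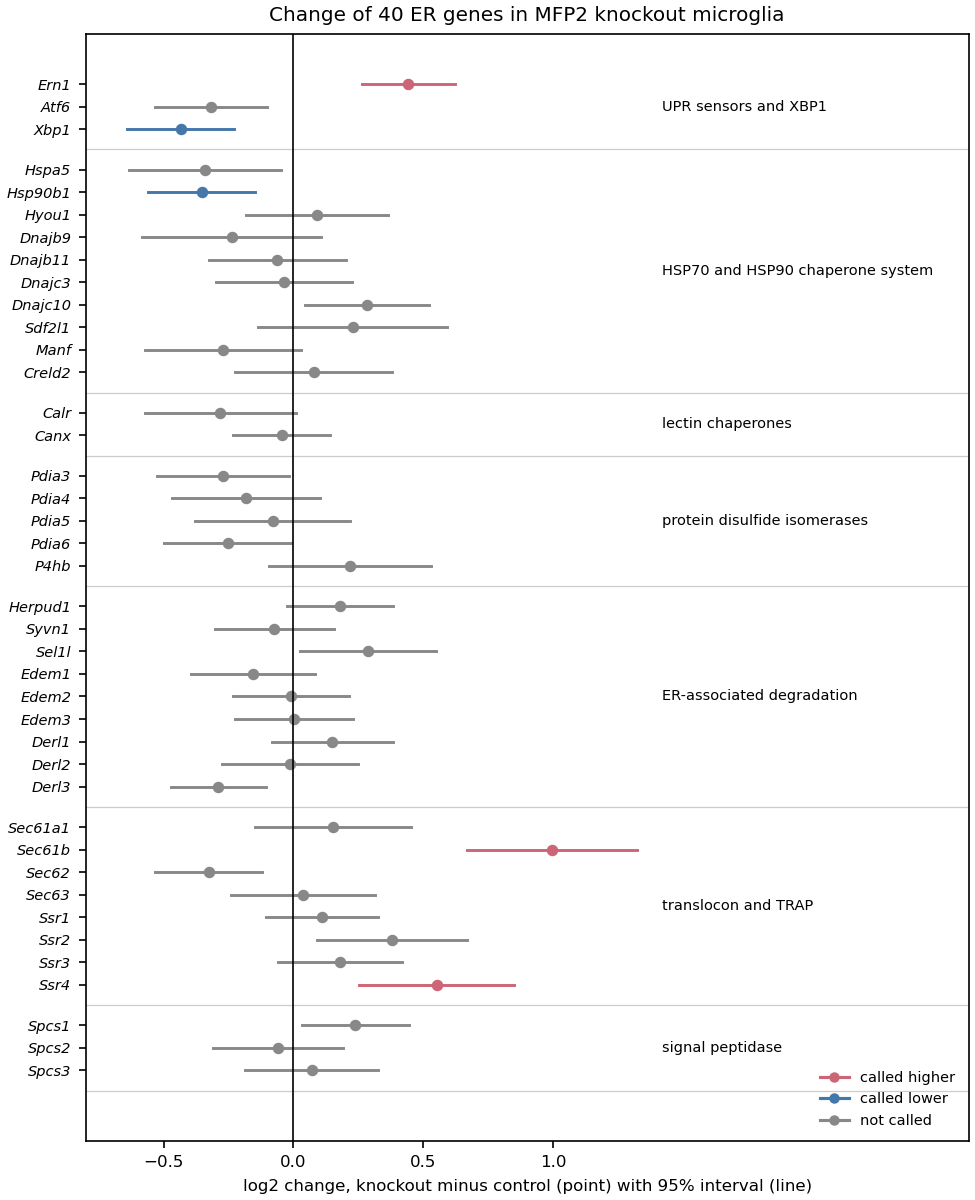
Log2 change, knockout minus control (horizontal axis), of the 40 measured ER genes grouped by role; points are limma estimates and lines their 95% intervals, coloured by call at an adjusted p of 0.05. The changes run from -0.43 for Xbp1 to 1.00 for Sec61b, and the changes of the 8 translocon and TRAP subunits are positive for all but Sec62.

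The transcripts of IRE1 and of its target XBP1 moved in opposite directions. Ern1 was at 7.59, 7.58, 7.38 and 7.49 in control 1 to control 4 and at 7.93, 7.97, 7.94 and 7.96 in knockout 1 to knockout 4. All knockout values were higher and lay within a narrow band, with an SD of 0.02 against 0.09 in controls. Its log2 level rose by 0.44 ± 0.08 (SE, n = 4 and 4), which is 1.36-fold (limma adjusted p = 0.00485). Xbp1 was at 9.27, 9.34, 9.11 and 9.17 in the controls and at 8.59, 8.86, 8.82 and 8.87 in the knockouts, with no overlap. Its change was -0.43 ± 0.10 (SE), a level lower by 1.35-fold (limma adjusted p = 0.0124). The annotation does not place the Xbp1 probe set relative to the intron that IRE1 removes, so this value does not measure splicing. Both calls held in each of 17 alternative fits at the same threshold, with adjusted p of 0.00178 to 0.0291 for Ern1 and 0.00388 to 0.0425 for Xbp1.

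Atf6, the sensor that is cut in the Golgi, was at 9.32 to 9.49 in controls and at 8.96, 8.97, 9.20 and 9.28 in knockouts. The groups did not overlap, but the difference of -0.32 (95% interval -0.53 to -0.10) missed the threshold (limma adjusted p = 0.0659). It passed without knockout 4 (adjusted p = 0.0419), after quantile normalization (0.0171) and after cyclic loess (0.0159).

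**Figure D2:**
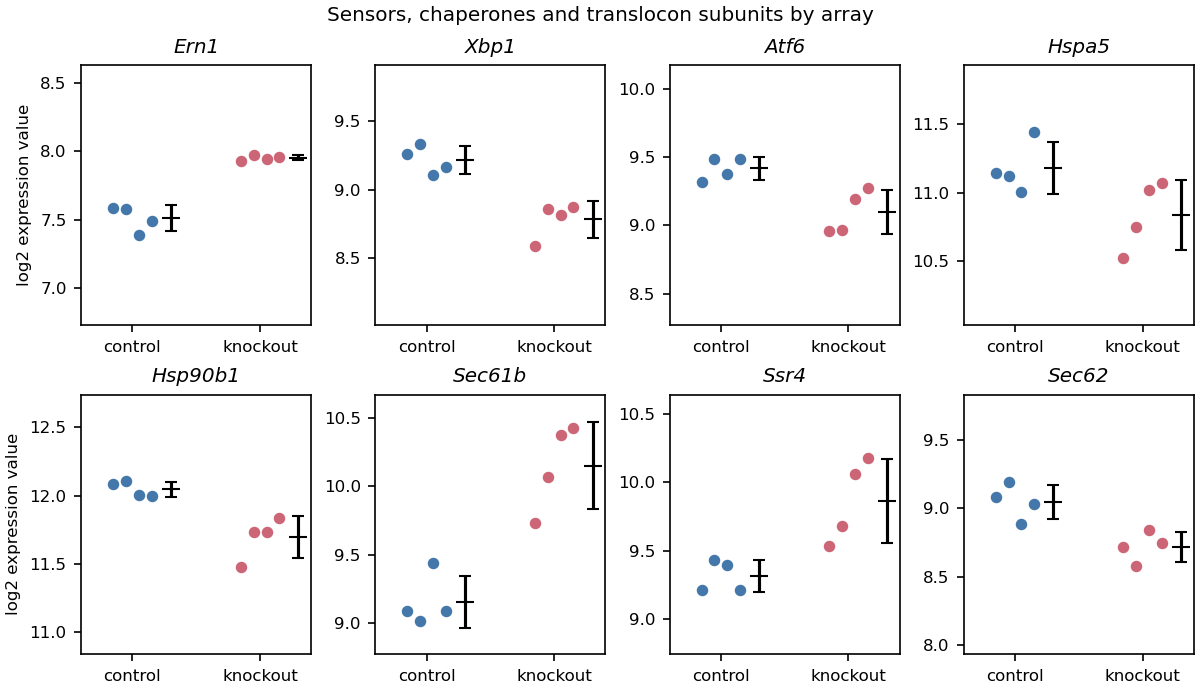
Log2 expression values (vertical axis, the same span in each panel) of 8 ER genes in 4 control and 4 knockout arrays, plotted in replicate order; horizontal dashes with bars are means ± SD. Ern1, Sec61b and Ssr4 lie higher in all knockout arrays, Xbp1, Atf6, Hsp90b1 and Sec62 lie lower, and Hspa5 overlaps, with 11.02 and 11.07 in knockouts against a lowest control value of 11.01.

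The chaperone group around BiP and GRP94 had 1 of 10 members lower and 0 higher, where 4.17% and 5.38% of all genes were. Its median log2 change was -0.05. Hsp90b1, at 12.09, 12.10, 12.003 and 11.996 in controls, was at 11.48, 11.73, 11.73 and 11.84 in knockouts. The knockout values were all lower, by 0.35 ± 0.09 (SE) in the mean, a 1.28-fold difference (limma adjusted p = 0.0341). The call was lost when any array other than knockout 4 was left out, with an adjusted p between 0.0501 without control 3 and 0.0934 without control 1, and also with arrays centred on their medians (0.0542). Without knockout 1, the lowest array, the difference was -0.28.

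Hspa5, which encodes BiP, was at 11.15, 11.13, 11.01 and 11.45 in controls and at 10.52, 10.75, 11.02 and 11.07 in knockouts. The groups overlapped slightly, and the difference of -0.34 (95% interval -0.63 to -0.05) did not pass (limma adjusted p = 0.158). The BiP cochaperones differed among themselves. Dnajc10, a disulfide reductase that works with BiP, was at 8.06 to 8.34 in controls and 8.25 to 8.63 in knockouts (0.28, interval 0.04 to 0.52). Dnajb9, which holds IRE1 in its inactive state, was at 9.03 to 9.60 and 8.88 to 9.46 (-0.24, interval -0.58 to 0.11), and Sdf2l1, a partner of the DnaJ proteins, at 8.91 to 9.16 and 8.69 to 9.59 (0.23, interval -0.14 to 0.59). Hyou1, the exchange factor of BiP, Dnajb11 and Dnajc3, which deliver substrates to it, and Creld2 had differences between -0.06 and 0.09, and Manf, a secreted BiP-binding protein, had -0.27 (interval -0.57 to 0.03).

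Neither lectin chaperone and none of the 5 protein disulfide isomerases passed the limma test, with Pdia3 and Pdia6 alone at an unadjusted p under 0.05. Calr, the soluble lectin chaperone calreticulin, was at 10.70, 10.73, 10.50 and 10.70 in controls and at 10.00, 10.37, 10.42 and 10.72 in knockouts, a difference of -0.28 (95% interval -0.57 to 0.01) with overlapping groups. Canx, its membrane-bound counterpart, had means of 11.24 ± 0.06 (SD, n = 4) and 11.20 ± 0.11. Pdia3, the isomerase that works with both lectins, was lower by 0.27 in the mean (interval -0.53 to -0.02) and Pdia6 by 0.25 (interval -0.50 to -0.01). P4hb, the founding member of the isomerase family, had the opposite sign, at 9.72 to 9.89 in controls and 9.60, 9.84, 10.15 and 10.38 in knockouts (0.22, interval -0.10 to 0.53). Pdia4 (-0.18) and Pdia5 (-0.08) overlapped widely between groups. A dimmer probe set of Pdia4, with a mean level of 5.12, gave -0.74 ± 0.22 (SE).

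The calls on chaperones and isomerases depended on how the arrays were scaled. Under quantile normalization 9 of the 40 ER genes were called lower and 3 higher, where 5.76% and 5.45% of all genes were, and under cyclic loess 10 lower and 3 higher, where 5.29% and 5.99% of all genes were. Beside chaperones and isomerases, the lower calls under both methods took in Atf6, Derl3 (-0.29 and -0.27) and Sec62 (-0.34 and -0.34). Hspa5 then changed by -0.65 after quantile normalization (adjusted p = 0.0102) and -0.57 after cyclic loess (0.0133), Canx by -0.42 (0.00844) and -0.30 (0.0299), Pdia3 by -0.54 (0.0205) and -0.49 (0.0102), and Calr by -0.42 (0.0386) and -0.47 (0.0276). Pdia6 was called under cyclic loess alone of the 17 fits (-0.36, adjusted p = 0.0334). Both methods also moved other bright genes down. The median change of the 184 genes with a mean level over 11, where Hspa5, Canx and Hsp90b1 lie, was 0.02 in the deposited values, -0.30 after quantile normalization and -0.28 after cyclic loess. At levels of 10 to 11, where Calr and Pdia3 lie, these medians were -0.05, -0.17 and -0.22, and at 9 to 10, the range of Pdia6, they were -0.04, -0.07 and -0.10. Hsp90b1 changed by -0.75 after quantile normalization, while Ern1, Sec61b, Ssr4 and Xbp1 kept their calls under all 3 scalings tried, centring included.

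Promoters were examined because chaperone genes are known to share the ER stress response element, to which cut ATF6 and XBP1 bind. Windows from 250 bases before to 50 bases after the start were taken from RefSeq (GRCm38.p6), which held 34 of the 41 genes, and were searched on both strands. Atf6, Hyou1, Manf, Derl1, Sec61a1, Ssr2 and Spcs3 had no window, so whether they hold the element was not examined. The full element, a CCAAT box and a CCACG box 9 bases apart, occurred in 9 of these 34 genes (26.5%). Of all 27025 genes with a window, 37 held it (0.137%). The sequences below are shown because they hold it, with the CCAAT and CCACG boxes in capitals and 15 bases on either side, read along the strand on which the element runs in that order. Hsp90b1 is printed along its own strand over the stretch that holds both of its elements, the second of which reads in reverse.
Hspa5 (chr2:34772010-34772058, + strand): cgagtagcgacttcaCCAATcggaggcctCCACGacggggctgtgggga
Hsp90b1 (chr10:86705518-86705671, - strand): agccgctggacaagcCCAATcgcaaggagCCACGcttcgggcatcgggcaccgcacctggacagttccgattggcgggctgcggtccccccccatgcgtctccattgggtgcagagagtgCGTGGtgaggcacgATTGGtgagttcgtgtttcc
Dnajc3 (chr14:118937812-118937860, + strand): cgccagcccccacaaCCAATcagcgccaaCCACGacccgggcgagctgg
Creld2 (chr15:88819505-88819553, - strand): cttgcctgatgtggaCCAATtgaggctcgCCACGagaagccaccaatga
Calr (chr8:84847060-84847108, + strand): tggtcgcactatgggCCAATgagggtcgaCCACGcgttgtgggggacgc
Canx (chr11:50325785-50325833, - strand): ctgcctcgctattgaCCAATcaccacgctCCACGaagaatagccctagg
Pdia6 (chr12:17266476-17266524, + strand): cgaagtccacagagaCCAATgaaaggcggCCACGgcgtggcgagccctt
Syvn1 (chr19:6046517-6046565, + strand): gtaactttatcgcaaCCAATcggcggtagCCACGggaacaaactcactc
Derl3 (chr10:75893227-75893275, - strand): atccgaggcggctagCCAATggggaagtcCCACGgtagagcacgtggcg

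The 9 genes whose windows hold the element had log2 changes from -0.35 for Hsp90b1 to 0.08 for Creld2, with 8 of 9 below 0 and a median of -0.25. Of them 1, Hsp90b1, was called, and 4 of the 9 had an unadjusted limma p under 0.05. The 24 measured ER genes with a window but no such match had a median of 0.02, with 13 changes above 0. They held 3 higher calls (Ern1, Sec61b and Ssr4) and 1 lower (Xbp1), and 9 of the 24 had an unadjusted p under 0.05. The 12 other tested genes whose windows hold the element were Acacb, Acnat2, Adcy3, Alg12, Calr4, Ero1b, Olfr59, Pan2, Ptgdr2, Spats2l, Tdrd9 and Zfp57. Of these 12, 0 were called by limma and 0 had an unadjusted p under 0.05, 6 changes were below 0 and the median was -0.02. They were not matched to the ER genes by level. The difference between these sets of genes was not tested. The element begins between 212 bases before the start, for Hsp90b1, and 44 bases before it, for Syvn1.

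The related element ERSE-II, an ATTGG box and a CCACG box 1 base apart, was found in 2 of the 34 genes (5.88%). Of all genes with a window 0.0444% held it. Herpud1, whose product gathers the degradation complex, holds it 52 bases before the start, shown here with the boxes in capitals and 15 bases on either side.
Herpud1 (chr8:94386362-94386402, + strand): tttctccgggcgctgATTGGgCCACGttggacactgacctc
Dnajb11 holds it after the start. Among 7 other tested genes whose windows hold ERSE-II, 2 were called higher by limma and 0 lower. An unadjusted limma p under 0.05 was found for 3 of the 7, 4 changes were below 0 and the median was -0.01. Krtcap2, described below, had the highest change of the 7 (0.67). The short box CCACG, part of both elements, was present in the windows of 27 of the 34 genes (79.4%) and of 35.5% of all genes. TGACGTGG, the core that spliced XBP1 is known to bind, was in the windows of 0 of the 34 genes and of 0.714% of all genes. The windows of Xbp1, Sec61b and Ssr4 hold none of these letters, and that of Ern1 holds the short box once. A match is a string of letters and not a measured binding site.

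None of the 9 genes of ER-associated degradation passed the limma test, 2 of them (Sel1l and Derl3) having an unadjusted p under 0.05, and their median log2 change was -0.01. Sel1l, which anchors the ubiquitin ligase complex, was at 8.76, 8.95, 8.38 and 8.50 in controls and at 8.87, 8.93, 8.89 and 9.04 in knockouts (0.29, 95% interval 0.03 to 0.55). The control values spread more widely here than the knockout values. Its partner Syvn1, the ligase itself, had -0.07 (interval -0.30 to 0.16). Herpud1 was at 9.51 to 9.80 in controls and 9.70 to 9.94 in knockouts (0.18, interval -0.02 to 0.38).

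The mannosidase-like proteins Edem1, Edem2 and Edem3, which mark glycoproteins for removal, had changes of -0.15, -0.01 and 0.00. Edem3 had an SD of 0.20 in controls and 0.02 in knockouts around the same mean of 7.83. The derlins, which form part of the channel out of the ER, did not move alike. Derl1 (0.15, interval -0.08 to 0.38) and Derl2 (-0.01, interval -0.28 to 0.25) overlapped between groups, while Derl3 was at 6.14, 6.11, 6.19 and 6.31 in controls and lower in every knockout, at 5.89, 5.98, 5.83 and 5.88. Its difference of -0.29 ± 0.08 (SE) lay just outside the threshold (limma adjusted p = 0.0509). Derl3 was the dimmest of the 40 genes, near the median of all genes, and passed in 5 of the 17 fits, with adjusted p of 0.0326 to 0.149 over them.

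Derl3 and Xbp1 are also markers of antibody-secreting plasma cells, and the other 5 markers of that list did not pass the limma test (1 at an unadjusted p under 0.05), at levels between 3.71 and 7.60. The summed level of the 7 plasma cell markers, on the linear scale, ran from 1021 to 1119 in controls and from 825 to 981 in knockouts, Xbp1 contributing the most. Jchain, which joins antibody chains, was at 4.01 to 5.85 in controls and 3.71 to 6.52 in knockouts.

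The subunits of the translocon and its partners had mostly positive changes. Of 8 measured subunits 2 rose and 0 fell, where 5.38% and 4.17% of all genes did. Changes were above 0 for 7 of the 8, and the median log2 change was 0.17. Sec61b, the small tail-anchored beta subunit of the SEC61 channel, was at 9.09, 9.01, 9.44 and 9.08 in controls and at 9.73, 10.07, 10.37 and 10.43 in knockouts. Every knockout value lay above the highest control, which was control 3. The rise was 1.00 ± 0.15 (SE), or 1.99-fold (limma adjusted p = 0.00146), the largest change among the 40 genes in size, and it passed in all 17 fits. Both further probe sets annotated to Sec61b rose as well, by 1.01 and 0.99. Whether these probe sets share sequence was not examined, so they are not counted as independent measurements.

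Sec61a1, the subunit that forms the pore, was at 9.30 to 9.63 in controls and at 9.38, 9.33, 9.87 and 9.88 in knockouts. Its difference of 0.15 (95% interval -0.15 to 0.45) did not pass. The change of Sec61b exceeded that of Sec61a1 by 0.84 ± 0.15 (SE), and all 4 knockout arrays showed it, between 0.66 and 1.05 above the control mean. The pair was chosen after the values were seen, so this difference is a description with no test.

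The TRAP complex, which helps some signal sequences enter the channel, had 1 of 4 subunits higher. Ssr4, its delta subunit, was at 9.21, 9.43, 9.39 and 9.22 in controls and at 9.54, 9.68, 10.06 and 10.18 in knockouts. The groups did not overlap, and the rise was 0.55 ± 0.14 (SE), or 1.47-fold (limma adjusted p = 0.0235). Leaving out control 1 (adjusted p = 0.0708), control 4 (0.0692), knockout 3 (0.0786) or knockout 4 (0.0610) ended the call.

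Ssr2, the beta subunit, was at 9.35 to 9.68 in controls and 9.53 to 10.12 in knockouts (0.38, 95% interval 0.09 to 0.67, limma adjusted p = 0.104), and passed without knockout 1 (0.49, adjusted p = 0.0243). Ssr3 (0.18, interval -0.06 to 0.42) and Ssr1, the alpha subunit (0.11, interval -0.10 to 0.33), had smaller positive changes that did not pass. The change of Ssr4 exceeded that of Ssr1 by 0.44 ± 0.14 (SE), a pair also chosen after the values were seen and given as a description.

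Sec62 and Sec63, partners of the channel in import after translation, differed. Sec62 was at 9.08, 9.19, 8.89 and 9.03 in controls and lower in every knockout, at 8.72, 8.58, 8.84 and 8.75, a difference of -0.33 ± 0.10 (SE) just outside the threshold (limma adjusted p = 0.0509, and 0.0167 to 0.130 over the alternatives). Sec63 had 0.04 (95% interval -0.24 to 0.31). In the signal peptidase, Spcs1 was higher in every knockout (10.45 to 10.78) than in every control (10.33 to 10.42), with a difference of 0.24 (interval 0.03 to 0.44) that did not pass (limma adjusted p = 0.161). Spcs2 (-0.06) and Spcs3 (0.07) overlapped between groups.

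The ER genes also varied together between arrays of the same group. Knockout 1 was the lowest knockout array for 32 of the 40 genes (80.0%), beside 25.6% of all genes, and the lowest of all 8 arrays for 22. Knockout 4 was the highest knockout for 28 (70.0%), beside 35.8% of all genes, and control 2 the highest control for 29 (72.5%), beside 27.5%. The median deviation of the 40 genes from the control mean was -0.25 in knockout 1, -0.10 in knockout 2, 0.08 in knockout 3 and 0.18 in knockout 4, and between -0.07 and 0.13 in the controls. For the protein disulfide isomerases the same medians ran from -0.50 in knockout 1 to 0.14 in knockout 4, and for the translocon subunits from -0.07 to 0.40. Over all genes they stayed between -0.04 and 0.01 in the 8 arrays. The ER genes other than Derl3 are brighter than most, lying at percentile 73.3 of mean level or above. The 90th percentile of an array, over all probe sets, was at 8.93, 9.01, 8.85 and 8.89 in control 1 to control 4. In knockout 1 to knockout 4 it was at 8.90, 8.89, 8.94 and 9.02. It was highest in control 2 and knockout 4, as most ER genes were, but knockout 1 was not the lowest knockout. The part of array brightness in this pattern was not tested.

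The knockout SD exceeded the control SD for 29 of the 40 genes, a share of 72.5% beside 48.7% of all genes and 55.6% of the 1072 genes in the middle range of their levels. The median SDs of the ER genes were 0.20 in knockouts and 0.13 in controls, and those of the 1072 genes 0.15 and 0.14. Without knockout 1, 5 ER genes were called higher (Ern1, Sdf2l1, Sec61b, Ssr2 and Ssr4) and 1 lower (Xbp1), where 5.83% and 4.11% of all genes were, and the median log2 change became 0.04. Sdf2l1 was then at 0.42 (limma adjusted p = 0.0271). Without control 1, the array that went against its sex label, 2 were higher (Ern1 and Sec61b) and 1 lower (Xbp1), with 3.96% and 2.73% of all genes. Without control 3 and knockout 2 together, 3 were higher and 1 lower, with 5.15% and 3.97% of all genes.

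**Figure D3:**
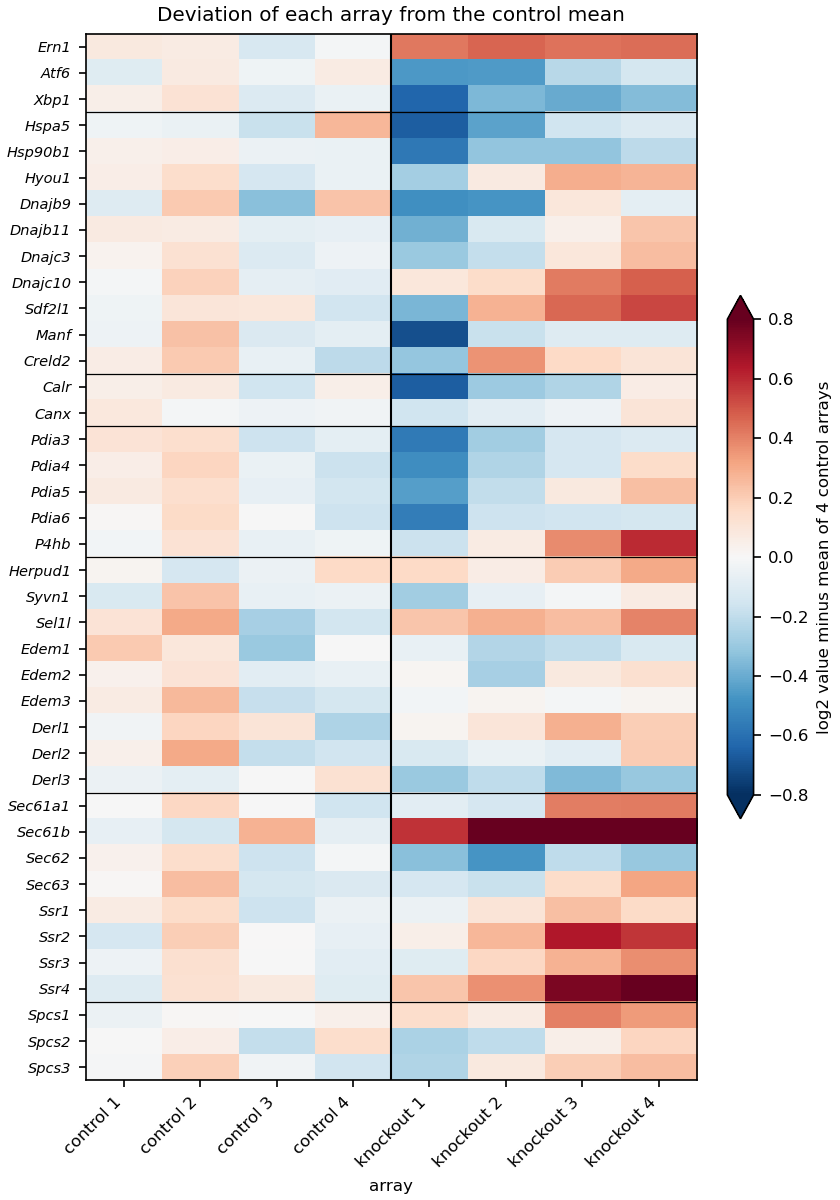
Log2 value of each ER gene (rows, grouped by role in the order of the text) in each array (columns) minus the mean of the 4 control arrays; red is higher and blue lower, and colours are at their limit beyond 0.8 in either direction. Knockout 1 is blue over most chaperones and isomerases, while Ern1 and Sec61b are red, and Xbp1, Hsp90b1, Derl3 and Sec62 blue, in all knockout arrays.

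Other genes of the ER and stress pathways were taken from 10 further lists. Of all 161 measured, 19 rose (11.8%, beside 5.38% of all genes) and 5 fell (3.11%, beside 4.17%). The PERK and ATF4 list held 8 of the 19. Earlier results of these data were known when the lists were chosen, so these shares are a description and no test. Of the 132 for targeting, glycosylation, folding, degradation and export, 9 rose (6.82%) and 0 fell, and the median log2 change was 0.02. These 132 leave out the PERK and ATF4 list and the heat shock list. The risers included Serp1, a small protein bound to the SEC61 channel under stress (0.77 ± 0.14, SE), Srp14, a subunit of the particle that targets ribosomes to the channel (0.58 ± 0.13), and Krtcap2, a small subunit of the oligosaccharyltransferase (0.67 ± 0.15). Each had its groups apart and passed in all 17 alternative fits at a threshold of 0.05; at 0.01 Serp1 alone of them passed. Srp14 was 1 of 12 measured genes of targeting called, Krtcap2 was 1 of 11 of its complex, and Serp1 and the J-protein Dnajb14 (0.65) were 2 of 23 other cochaperones and UPR targets.

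Among 20 other oxidoreductases and prolyl isomerases, 2 rose. Ero1a, the oxidase that recharges protein disulfide isomerase, went from 7.49 ± 0.17 (SD, n = 4) to 8.39 ± 0.30, a rise of 0.90 ± 0.14 (SE, limma adjusted p = 0.00203), and Qsox1, another sulfhydryl oxidase, rose by 0.50. In the glycan-dependent folding cycle 2 of 10 rose, the lectin Os9, which hands glycoproteins to degradation (0.51 ± 0.10, SE), and the folding sensor Uggt2 (0.40). Get3, which delivers tail-anchored proteins to the ER, rose by 0.39, as 1 of 14 genes of tail-anchor insertion and the ER membrane complex.

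Of 20 further degradation factors and 22 genes of COPII export 0 were called, with 6 and 4 at an unadjusted limma p under 0.05. The lowest p in these groups were those of Ubxn6 (0.27) and the cargo receptor Tmed3 (0.49, limma adjusted p = 0.0576). Calls that were lost without an array were those of Get3 (control 2, control 4, knockout 3 or knockout 4, adjusted p = 0.0621 to 0.0780), Uggt2 (control 1 or knockout 3, 0.0662 and 0.0686), Qsox1 (every array other than knockout 1 and knockout 2, 0.0581 to 0.103) and Dnajb14 (control 2, control 3, control 4, knockout 3 or knockout 4, 0.0558 to 0.0866).

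The remaining UPR branch, that of PERK, was outside the list of 41, and was looked at in a list that joins it with ATF4 targets. Of 17 genes of the PERK branch and of ATF4 targets, 8 rose and 0 fell, where 5.38% and 4.17% of all genes did. Their median log2 change was 0.55. The lowest adjusted p were those of the asparagine synthetase gene Asns (2.33 ± 0.21, SE), the serine synthesis gene Psat1 (1.50 ± 0.19) and the stress sensor Sesn2 (0.78 ± 0.12). The kinase PERK itself, Eif2ak3, had -0.30 (limma adjusted p = 0.108), Atf4 0.01, and Ddit3, which encodes the transcription factor CHOP, 0.30 (limma adjusted p = 0.126).

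Heat shock proteins outside the ER moved in both directions. Of 12 measured, 5 fell and 2 rose, where 4.17% and 5.38% of all genes did. Those that fell were all cytosolic: Dnaja1 (-0.78 ± 0.14, SE), Hsph1 (-0.71), Hspa1a (-0.64), Dnajb1 (-0.60) and Hspa8 (-0.37). The 2 that rose, Hspa9 (0.70 ± 0.13) and Hspe1 (0.47 ± 0.10), are chaperones of mitochondria. The other 5 were not called. They were the mitochondrial Hspd1 (0.17, limma adjusted p = 0.529) and the cytosolic Hspa4 (-0.02), Hsp90aa1 (-0.19), Hspb1 (-0.11) and Bag3 (-0.10). Apart from Dnaja1, Hspa9 and Hspe1 these names were chosen after their values were seen. Hspe1 was not called after quantile normalization (adjusted p = 0.106) or cyclic loess (0.115).

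**Figure D4:**
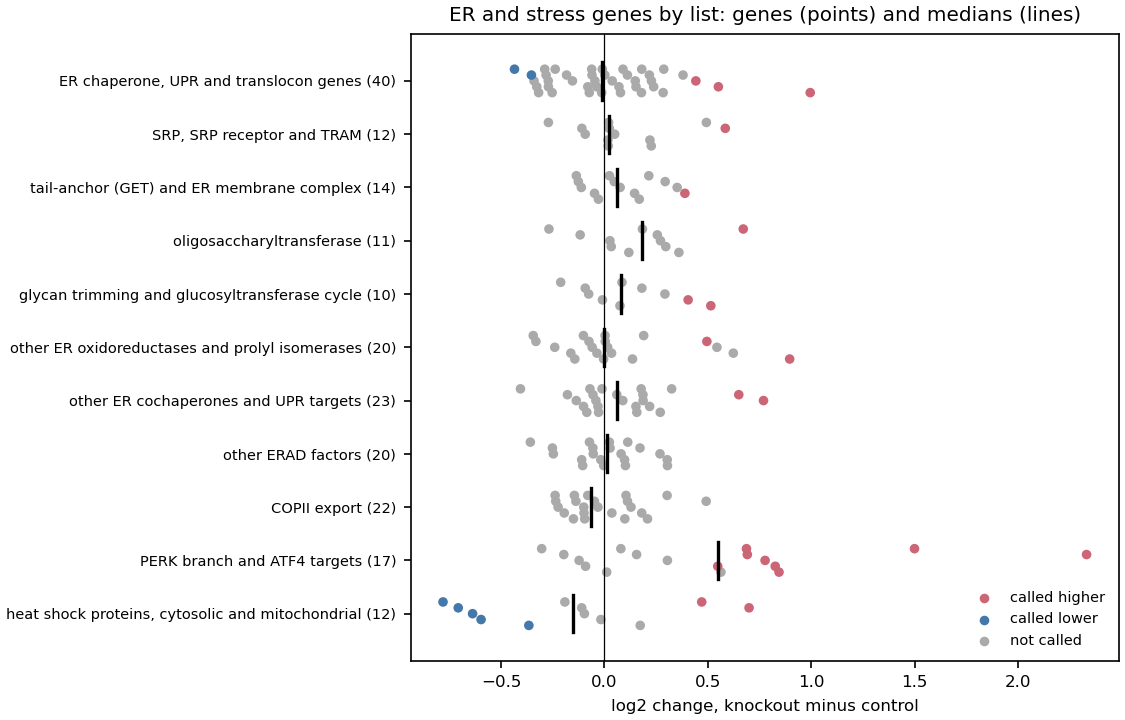
Log2 change, knockout minus control (horizontal axis), of each gene (points, coloured by call) in the 40 ER genes and 10 further lists, with the number of measured genes in brackets and vertical lines at the medians. The PERK and ATF4 list has 8 of 17 genes called higher, the heat shock list has 5 called lower and 2 higher, and the other further lists have 0 to 2 called higher and 0 lower.

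Markers of microglia and of other cells that differed between the groups are given for the same arrays. Over all genes tested 4.17% were called lower and 5.38% higher. Of 7 measured microglial and myeloid markers 4 fell (Tmem119, P2ry12, Cx3cr1 and Csf1r), and the summed linear level of the list was 25968 to 29356 in controls and 20582 to 22536 in knockouts. Of 6 markers of brain-border macrophages 3 fell and 1 rose, with summed linear levels of 569 to 905 in controls and 341 to 575 in knockouts. Of 5 astrocyte markers 2 rose (659 to 757, and 719 to 783), of 4 oligodendrocyte markers 1 rose (342 to 381, and 400 to 450), of 3 monocyte markers 1 fell (312 to 558, and 251 to 714), and of 5 endothelial markers 1 rose and 1 fell (331 to 476, and 338 to 545). None of the measured markers of B cells, T and NK cells or neurons was called by limma, 0, 2 and 1 of them having an unadjusted p under 0.05. Of 7 neutrophil markers 0 were called by limma and 0 had an unadjusted p under 0.05, and their sums varied widely, from 2894 in control 1 to 19440 in control 3 and from 7015 to 12464 in knockouts. Of 11 immediate-early genes, which respond to cell isolation, 0 were likewise called or under 0.05 unadjusted, but their sum was 13036 in control 4 against 2325 in the lowest control and 2488 to 4740 in knockouts, and control 4 also had the highest Hspa5 value. The part of these cells and responses in the changes of the ER genes was not tested.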

How the data were processed

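The authors deposited log2 values, 1 for each probe set on each array, and the submitters' processing notes name RMA as the method. The program, its version and the chip definition were not given in the sources used here, and that the logarithm has base 2 follows from the values' range (2.04 to 13.99). RMA understates changes of dim genes and hides shifts shared by all. RNA (5.775 ng per sample, integrity number of at least 8) was amplified with a NuGEN kit, per the labels' protocols. Of 28874 probe sets, 21789 had 1 gene symbol in the platform annotation; 1621 with several and 5464 with none were not used. Symbols were checked against RefSeq (GRCm38.p6) by gene number, with 21698 matched and 0 changed. All 19938 genes were fitted with limma 3.58.1 in R 4.3.3 (lmFit, eBayes, no covariate, no filter). Of 173 further listed genes 161 were measured.

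The members and lists were chosen with earlier results of these data known. Named were all members, up to 3 called genes of each further list by adjusted p (or the gene with the lowest p), and the label checks. The alternatives tried were a dim-gene filter (5 or more in at least 4 arrays), quantile normalization, median centring, cyclic loess, averaging the probe sets of a gene, eBayes with trend and robust options, weighting of arrays, a block for replicate number, leaving out each array, leaving out control 3 and knockout 2 together, and a threshold of 0.01. The fit was tested on simulated data. Figures were drawn with matplotlib 3.10.9.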

Additional observations from a re-analysis of the deposited data

Results flagged for a closer look

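In each group of 4 arrays, Dixon's ratio (the gap of the extreme array to its nearest neighbour over the group's range) was set against its 95% critical value. It was exceeded in 3 of 80 groups, while chance exceeds it in about 1 in 20. Manf was at 8.42 in knockout 1, with the other knockouts between 8.95 and 9.02. Pdia6 was at 9.33 in knockout 1, with the others between 9.72 and 9.75. Calr was at 10.50 in control 3, with the other controls between 10.70 and 10.73.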

How the results depend on the processing

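The 3 higher calls among the ER genes were the same genes under 8 of the 9 alternatives that keep all arrays and under the loss of control 3 and knockout 2 together, the exception being an adjusted p under 0.01, and their number ranged from 2 to 5 when 1 array was left out. The 2 lower members became 4 without dim genes, with the mean of probe sets or with array weights, 9 after quantile normalization, 10 after cyclic loess, 1 with centred arrays, with the replicate block or without control 3 and knockout 2, 0 at an adjusted p under 0.01, and 1 to 3 with 1 array left out. Of all genes, 4.17% were lower in the deposited values, 6.08% without dim genes, 4.21% with the mean of probe sets, 4.66% with array weights, 5.76% after quantile normalization, 5.29% after cyclic loess, 3.28% with centred arrays, 4.14% with the block, 3.97% without control 3 and knockout 2, 1.80% at the stricter threshold and 2.54% to 4.81% with 1 array left out. The share higher ran from 3.78% to 5.83% with 1 array left out. Xbp1 was called lower in every setting other than the stricter threshold. Of the 161 companion genes outside the member list, 19 were higher and 5 lower; the lower became 12 after quantile normalization, 8 after cyclic loess, 3 with centred arrays, 1 at an adjusted p under 0.01 and 2 to 7 with 1 array left out, and the higher 9 at the stricter threshold and 13 to 25 with 1 array left out. The median log2 change of the members ran from -0.07 to 0.06 with 1 array left out. The fit with the replicate number as a block called 3 members higher and 1 lower, Hsp90b1 being lost (adjusted p = 0.0661). Same-numbered arrays deviated together only for number 1 (correlation 0.16, and -0.06 to 0.01 for the others), so the numbers were not taken as pairs. No direction reversed for the 5 called members or for the called companion genes followed singly (up to 3 per list, by adjusted p). The cause of these differences was not tested. With 4 arrays per group and no detection call per probe set, small changes and dim genes such as Derl3 are poorly resolved.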
